A study of Homo sapiens with 9 samples.

Results

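Mediator is the large protein complex that joins transcription factors bound at enhancers to RNA polymerase II at promoters. Its genes were followed here with and without depletion of UGDH in the human cell line MDA-MB-231, an established model of triple-negative breast cancer. The UGDH enzyme turns UDP-glucose into UDP-glucuronate, a building block of hyaluronan. The members were taken by name from the count table: every entry called MED followed by a number, with or without a final L, plus CDK8, CDK19 and CCNC. That gave 33 genes among 23710 entries, and all 33 were among the 12546 genes with enough counts to test. Cells carried 1 of 3 short hairpin RNAs from the lentiviral vector pGIPZ: shNT, which is non-targeting, or shUGDH-1 or shUGDH-2, the 2 that target UGDH. Each gave 3 libraries, 9 in all. All groups shared the vector, the transduction and the medium, DMEM with fetal bovine serum. The labels call the cultures biological replicates and do not say whether each was transduced separately or whether the cells were pools or clones, so a p-value here reflects only how much these libraries vary.

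MED24 was put forward because of its low level with shUGDH-1. Its values in those libraries are therefore a description, given with no test, while the other 32 genes were taken by name alone.

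Mediator is built from modules. The head and middle modules contact RNA polymerase II and the general transcription factors, MED14 is the scaffold that holds the modules together, and the tail receives most of the activators. A separable kinase module, formed by CDK8 or CDK19 with cyclin C (CCNC), MED12 or MED12L, and MED13 or MED13L, binds the rest reversibly and can block the contact with the polymerase. MED24 is a tail subunit that sits beside MED16 and MED23, and it is known from work on nuclear receptors, for which MED1 carries the main docking motifs. By these assignments, the members comprised 7 head, 9 middle, 1 scaffold, 9 tail and 7 kinase module genes.

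The hairpin sequences of the labels are shown because MED24 differed between hairpins that share their target. Each is written 5′ to 3′, with bases 2 to 8 (the seed, which leads target recognition by small RNAs) in capitals.
shNT: aTCTCGCTtgggcgagagtaag
shUGDH-1: tTGCATCAaatatgcgacg
shUGDH-2: aTATACTTcagatctgctg
Both UGDH hairpins are antisense to the coding sequence of UGDH. They match all 19 bases at chr4:39510687-39510705 (shUGDH-1) and chr4:39510800-39510818 (shUGDH-2) of GRCh38, on the minus strand, by GENCODE release 29. Coordinates were read in this build, which is not the authors' hg19. The next lines give, in transcript sense, the UGDH site of each hairpin and the MED24 window with the longest run of matching bases. Capitals mark the bases that match the hairpin's complement.
UGDH, shUGDH-1: CGTCGCATATTTGATGCAA
MED24, shUGDH-1: atcaGtAagTTTGATGact
UGDH, shUGDH-2: CAGCAGATCTGAAGTATAT
MED24, shUGDH-2: tgtCctAcCTGAAGTATgc
The MED24 windows lie in the coding sequence, at chr17:40035786-40036124 across an exon junction (shUGDH-1) and at chr17:40053311-40053329 (shUGDH-2). With shUGDH-1 the longest run in MED24 was 7 bases, and 74.5% of the 11587 tested genes matched to GENCODE had a run at least that long. With shUGDH-2 it was 9 bases, a length reached by 17.5% of genes.

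TGATGCA, the heptamer complementary to the shUGDH-1 seed, was found in the longest coding transcript of 25.1% of the matched genes and of 8 of the 33 Mediator genes. MED24 had it in none of its 34 annotated transcripts. Of the 8 members with this heptamer, MED14, with 5 copies, and CCNC, with 1 copy in its 3′ UTR, fell with shUGDH-1. MED1, MED12L, MED13, MED19, MED20 and MED29 carried it and did not pass the test. Over all matched genes, 13.6% of those with this heptamer and 9.43% of those without it were lower with shUGDH-1, and their median transcript lengths were 4790 and 3068 bases. AAGTATA, the heptamer for shUGDH-2, was in 20.2% of genes and in 6 members, none of which passed with that hairpin, and it was absent from the MED24 transcripts. Over all matched genes, 11% of those with AAGTATA and 5.99% of those without it were lower with shUGDH-2, with median transcript lengths of 5207 and 3096 bases.

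The other strand of the shUGDH-1 sequence was searched as well, taken as the exact reverse complement because the labels give 1 strand only. It is shown, with its bases 2 to 8 in capitals, above the MED24 window that holds the complementary heptamer, ATGCGAC. In this window capitals mark the heptamer alone, not every matching base.
shUGDH-1, reverse strand: cGTCGCATatttgatgcaa
MED24, reverse strand window: cttcgaagttgATGCGACt
ATGCGAC was present in 405 of 11587 genes (3.5%), and MED24 was the 1 Mediator gene among them. Its copy lies in the coding sequence, in the window at chr17:40021999-40022017, and 9 of the 19 window bases match, 7 of them in the heptamer. The heptamer was in 9 of the 34 annotated MED24 transcripts of any type, the longest coding one among them. Levels of single transcripts were not measured. Of the 405 genes, 11.1% were lower with shUGDH-1 at the threshold used below, close to the 10.5% of genes without the heptamer, and 15.3% were higher, against 10.7%. MED24 was the lowest of the 405, with a log2 fold change of -1.33, and the next was at -0.87. Because MED24 was put forward by this same value, its place among the 405 is a description and no test. Only 4 of all 12546 genes tested were lower than MED24 with shUGDH-1. A longer run of 12 bases complementary to this strand was present in MED12 and MED17, whose log2 fold changes with shUGDH-1 were 0.01 and -0.02. Neither of these genes holds ATGCGAC, so such a run is a different measure from the heptamer match. The reverse strand of shUGDH-2 was searched in the same way. Its heptamer, ATCTGCT, was in 26.7% of genes and in 15 Mediator genes. MED24 was among them, with the heptamer in 8 of its 34 transcripts and in the 3′ UTR of the longest coding one. The MED24 log2 fold change with shUGDH-2 was 0.01. These matches describe the letters only. Their part in the MED24 level was not tested.

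UGDH, the targeted gene, fell with both hairpins, with log2 fold changes of -2.80 and -2.89 (edgeR adjusted p = 3.9e-36 and 1.2e-36). The control libraries held 53.0, 55.6 and 50.3 CPM (each library's counts scaled to a common size), the shUGDH-1 libraries 7.62, 7.30 and 8.03 CPM, and the shUGDH-2 libraries 8.09, 6.62 and 6.79 CPM. No knockdown library overlapped the controls, and the hairpins overlapped each other. The libraries held 9249738 to 13328002 counts, the lowest total being shUGDH-1 replicate 3, and Mediator genes had from 18 (MED12L) to 3774 (MED14) counts in a library. The 9 genes listed as high in MDA-MB-231 were all expressed, from FN1 at 130 CPM to AXL at 2263 CPM with shNT, while ESR1, PGR, CDH1 and KRT5 had too few counts to test. ERBB2 (117 CPM), GATA3 (37.5 CPM) and EPCAM (8.35 CPM) were detected with shNT although listed as low. Of the leukocyte markers only CD68 and CD14 were tested, and of the fibroblast markers only PDGFRB and COL1A1; PTPRC, CD3E, LYZ, DCN, LUM, PDGFRA and COL3A1 were below the filter. CD68 was lower with both hairpins (log2 fold changes of -0.16 and -0.12) and COL1A1 higher with shUGDH-2 (0.42). CD14, at 18 to 33 counts a library, lay above the controls in all libraries of both hairpins without passing (log2 fold changes of 0.62 and 0.25, edgeR adjusted p = 0.075 and 0.61). The markers' part in the Mediator values was not tested.

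MED24 stood far below the control with shUGDH-1 and level with it under shUGDH-2. The gene (ENSG00000008838.19) lies at chr17:40019097-40061215 on the minus strand in GRCh38, where MIR6884 and SNORD124 overlap it on the same strand and THRA on the other. The control libraries gave 1396, 1294 and 1297 raw reads, the shUGDH-1 libraries 595, 529 and 413, and the shUGDH-2 libraries 1250, 1431 and 1403. After scaling, these were 107, 110.0 and 110.5 CPM, then 45.8, 39.8 and 44.8 CPM, then 105, 110.2 and 113 CPM. The 3 shUGDH-1 libraries sat together below the other 6, which overlapped. With shUGDH-1 the level was 43.5 ± 3.23 CPM against 109 ± 1.75 CPM with shNT (SD, n = 3 each), or 39.7% of it, and the log2 fold change was -1.33 (SE 0.05). With shUGDH-2 it was 109.6 ± 4.07 CPM (SD, n = 3), and the log2 fold change against shNT was 0.01 (SE 0.04, 95% interval -0.07 to 0.09, edgeR adjusted p = 0.95). Between the hairpins, the log2 difference was 1.34 (SE 0.05) higher with shUGDH-2. In bulk RNA, fewer cells with the transcript and less of it per cell cannot be told apart.

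**Figure D1:**
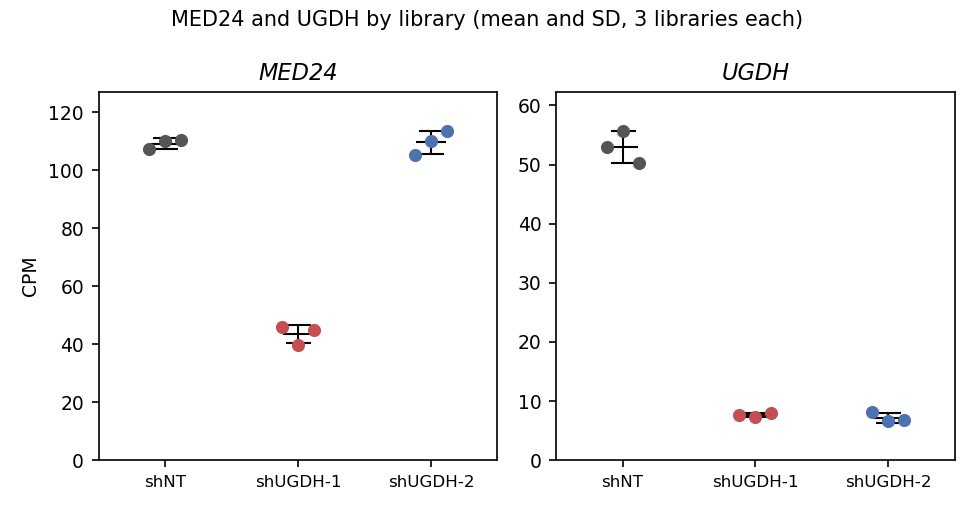
Level of MED24 (left) and UGDH (right) in CPM in each of the 9 libraries, as points, with the mean and SD of 3 libraries per hairpin. UGDH is low with both hairpins, whereas MED24 is at 39.8 to 45.8 CPM with shUGDH-1 and at 105 to 113 CPM in the other libraries.

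No other member moved on this scale. With shUGDH-1 the remaining 32 genes had log2 fold changes from -0.27 to 0.16, and their median was -0.033, beside -0.003 over all 12546 genes tested. Of all genes tested, 4 were lower than MED24 with shUGDH-1, UGDH among them. With shUGDH-2 the 32 genes ran from -0.33 to 0.20, with a median of -0.003, beside -0.006 over all genes. MED24 made up 5.54%, 5.65% and 5.72% of the counts of all Mediator genes in the control libraries. Its share was 2.53%, 2.2% and 2.42% with shUGDH-1, and 5.41%, 5.66% and 5.77% in the shUGDH-2 libraries. The other 32 genes had a summed level of 1829 ± 9.17 CPM in the control, 1782 ± 22.1 CPM with shUGDH-1 and 1843 ± 6.56 CPM with shUGDH-2 (SD, n = 3 each). Their sum was lower in each shUGDH-1 library (1766 to 1807 CPM) than in each control library (1821 to 1839 CPM). This sum weights abundant genes most, among them MED14, at 254.8 CPM with shUGDH-1 and 283.3 CPM with shNT. Of the 32 genes, 21 had negative and 11 positive log2 fold changes with shUGDH-1, beside 6378 and 6168 of all genes tested. With shUGDH-2 the 32 genes had 16 negative and 16 positive values.

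**Figure D2:**
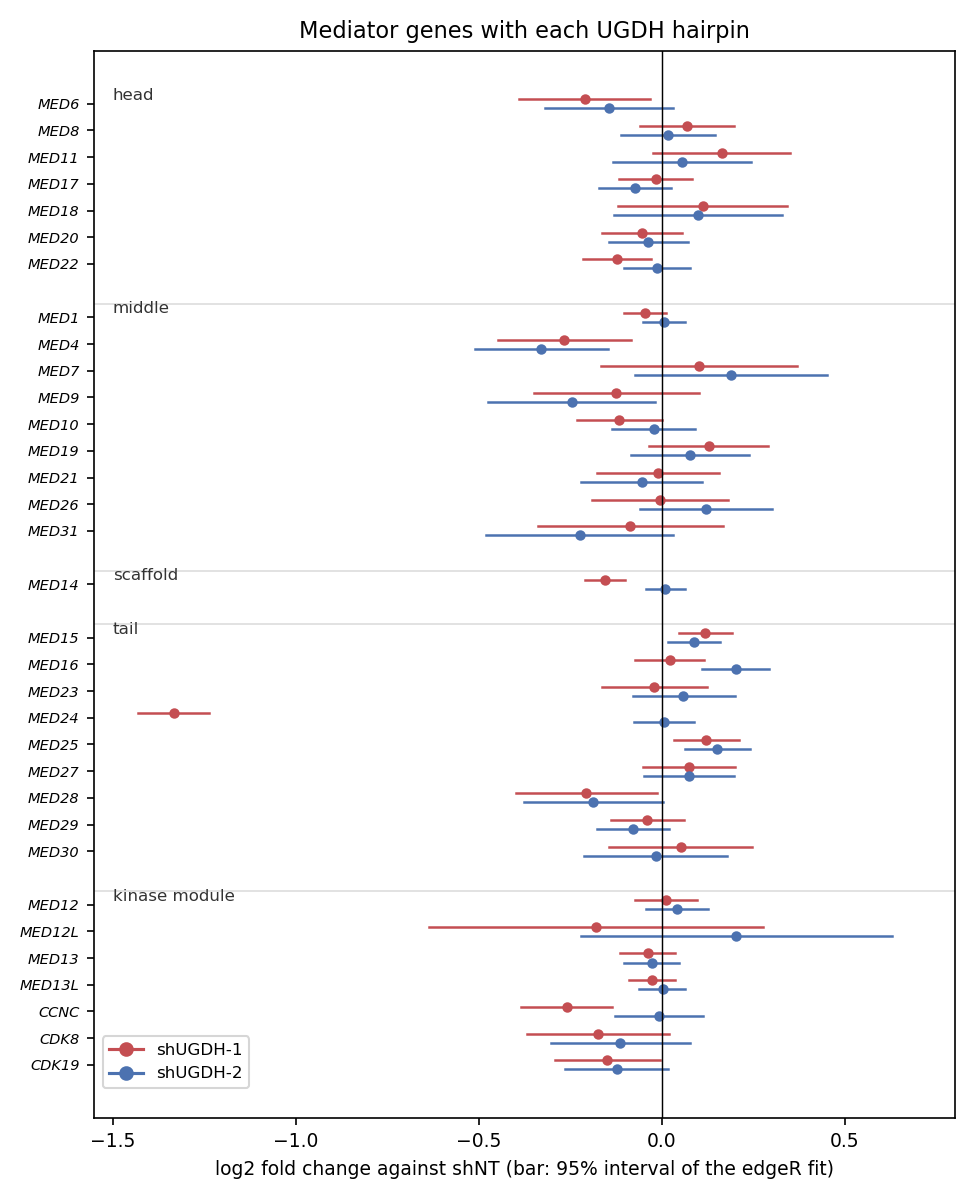
Log2 fold change of the 33 Mediator genes against shNT with shUGDH-1 (red) and shUGDH-2 (blue), grouped by module, with 95% intervals from the edgeR fit. MED24 with shUGDH-1, at -1.33, lies apart from the other values, which run from -0.33 to 0.20.

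The quasi-likelihood F-test of edgeR was applied to all genes with Benjamini-Hochberg adjustment, and an adjusted p under 0.05 counted as passing. Among the 32 members other than MED24, 2 were higher with shUGDH-1 (MED15 and MED25) and 4 were lower (MED14, CCNC, MED4 and MED22). These 6 amount to 18.8%, beside 20.8% of all genes tested, 10.5% higher and 10.3% lower. With shUGDH-2, 2 of the 33 members were higher (MED16 and MED25) and 1 lower (MED4), or 9.09%, beside 14.9% of all genes (8.04% higher and 6.81% lower). The share called with shUGDH-1 was near the background. Both comparisons use the same 3 control libraries. MED25 was higher and MED4 lower with each hairpin, and 8.33% of all genes were called the same way with both.

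The scaffold gene MED14 fell with shUGDH-1. Its level was 289.9, 281 and 279 CPM in the shNT libraries, 248, 256 and 261 CPM with shUGDH-1, and 293, 279 and 283.5 CPM with shUGDH-2. Every shUGDH-1 library was below the other 6. The log2 fold change was -0.155 (SE 0.03, edgeR adjusted p = 1.2e-05) with shUGDH-1, a level 89.8% of the control, and 0.01 (SE 0.03, edgeR adjusted p = 0.87) with shUGDH-2. It passed with shUGDH-1 under all 15 alternative settings tried, with adjusted p-values of 1e-06 to 0.0013.

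In the kinase module, CCNC fell with shUGDH-1. This gene encodes cyclin C, which activates CDK8 and CDK19. It stood at 40.2, 39.7 and 40.2 CPM in the shNT libraries, 33.6, 34.8 and 31.5 CPM with shUGDH-1, and 38.5, 38.4 and 42.7 CPM with shUGDH-2. As with MED14, the 3 shUGDH-1 libraries were the lowest of the 9. The log2 fold change was -0.26 (SE 0.06, edgeR adjusted p = 0.0012) with shUGDH-1, passing under all 15 settings (adjusted p 0.00088 to 0.014), and -0.01 (SE 0.06, edgeR adjusted p = 0.96) with shUGDH-2. Neither kinase passed: CDK8 had log2 fold changes of -0.17 and -0.11 with shUGDH-1 and shUGDH-2, and CDK19 of -0.15 and -0.12. MED12, MED13 and MED13L, the large subunits that activate and tether the kinase, ranged from -0.04 to 0.04 and did not pass. MED12L, the scarce paralog of MED12 with 18 to 37 counts per library, was at -0.18 and 0.20, with 95% intervals of -0.64 to 0.28 and -0.22 to 0.63. These pairs of paralogs, and CDK8 with CDK19, share sequence, and how the authors' counting divided shared reads is not given in the sources used here.

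Among the tail genes, MED16 rose with shUGDH-2. MED16, a neighbour of MED24 in the complex, was at 67.8, 71.8 and 69.3 CPM in the shNT libraries, 70.2, 67.7 and 74.9 CPM with shUGDH-1, and 77.8, 79.3 and 83.0 CPM with shUGDH-2. All shUGDH-2 libraries were above the other 6. The log2 fold change was 0.20 (SE 0.05, edgeR adjusted p = 0.0011) with shUGDH-2, kept under all 15 settings (adjusted p 3e-04 to 0.015), and 0.02 (SE 0.05, edgeR adjusted p = 0.81) with shUGDH-1. MED23, the third gene of this part of the tail, did not pass with either hairpin, at -0.02 and 0.06.

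MED25, a tail subunit first known as the target of a viral activator, rose slightly with both hairpins. Its level was 74.2, 80.6 and 76.5 CPM in the shNT libraries, 82.6, 84.3 and 84.7 CPM with shUGDH-1, and 81.5, 85.1 and 89.8 CPM with shUGDH-2, with no overlap between either hairpin and the control. The log2 fold changes were 0.12 (SE 0.04, edgeR adjusted p = 0.044) and 0.15 (SE 0.04, edgeR adjusted p = 0.013). The shUGDH-1 call was lost on leaving out any of shNT replicate 1 (edgeR adjusted p = 0.20), shNT replicate 3 (0.10), or shUGDH-1 replicate 1 (0.057), 2 (0.13) or 3 (0.11), and the shUGDH-2 call without shNT replicate 1 (0.080) or shUGDH-2 replicate 3 (0.12). DESeq2 called it with neither hairpin (DESeq2 adjusted p = 0.15 and 0.060), and scaling by library size alone ended the shUGDH-1 call (edgeR adjusted p = 0.057). Expressed genes on the other strand overlap MED25 (PTOV1-AS1), MED17 (TAF1D), MED31 (TXNDC17) and MED11 (CXCL16) by their gene bounds. As no source used here says how counting treated strand, reads in the shared stretches of such pairs cannot be told apart.

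MED15, the tail subunit bound by the sterol regulator SREBP, rose with shUGDH-1. It was at 136, 147 and 139 CPM in the shNT libraries, 153, 149 and 156 CPM with shUGDH-1, and 151, 141 and 156 CPM with shUGDH-2. The shUGDH-1 libraries were above all controls, and the shUGDH-2 libraries overlapped them. Its log2 fold change was 0.12 (SE 0.04, edgeR adjusted p = 0.013) with shUGDH-1 and 0.09 (SE 0.04, edgeR adjusted p = 0.095) with shUGDH-2. Leaving out shNT replicate 1 (edgeR adjusted p = 0.080), shNT replicate 3 (0.051) or shUGDH-1 replicate 3 (0.069) ended the shUGDH-1 call, and with shUGDH-2 the gene passed without shNT replicate 2 (0.022) or shUGDH-2 replicate 2 (0.020). DESeq2 did not call the shUGDH-1 change (DESeq2 adjusted p = 0.059). MED15 and MED28 each have 8 named pseudogenes, which leaves their counts less certain. MED27, MED28, MED29 and MED30 did not pass with either hairpin, with log2 fold changes from -0.21 to 0.07.

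MED4, a subunit at the core of the middle module, was lower with both hairpins. It stood at 22.9, 20.3 and 21.1 CPM in the shNT libraries, 19.9, 16.9 and 16.4 CPM with shUGDH-1, and 14.3, 19.0 and 17.8 CPM with shUGDH-2. Every knockdown library was below every control library. The log2 fold change was -0.27 (SE 0.09, edgeR adjusted p = 0.028) with shUGDH-1 and -0.33 (SE 0.09, edgeR adjusted p = 0.0076) with shUGDH-2. The shUGDH-1 call did not hold without shNT replicate 1 (edgeR adjusted p = 0.13), shUGDH-1 replicate 2 (0.15) or shUGDH-1 replicate 3 (0.13), nor the shUGDH-2 call without shNT replicate 1 (0.052) or shUGDH-2 replicate 1 (0.14). DESeq2 called neither (DESeq2 adjusted p = 0.12 and 0.054). The other 8 middle genes did not pass with either hairpin. MED1, which docks nuclear receptors, was at -0.046 and 0.005, MED10 at -0.12 and -0.02, and MED21 at -0.01 and -0.06 with shUGDH-1 and shUGDH-2. MED9, at -0.25 with shUGDH-2 (edgeR adjusted p = 0.15), passed only without shNT replicate 2 (0.026).

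In the head module, MED22 was at the edge of the threshold with shUGDH-1. Its level was 74.2, 72 and 74.0 CPM in the shNT libraries, 68.1, 65.5 and 69.3 CPM with shUGDH-1, and 74.0, 73.2 and 71.2 CPM with shUGDH-2. The shUGDH-1 libraries were the 3 lowest. Its log2 fold change was -0.12 (SE 0.05, edgeR adjusted p = 0.049) with shUGDH-1 and -0.01 (SE 0.05, edgeR adjusted p = 0.90) with shUGDH-2. It passed under 2 of the 15 alternative settings, and leaving out any 1 of the 9 libraries ended the call (edgeR adjusted p 0.054 to 0.22). MED17, the central head subunit, was at -0.02 and -0.07, MED20 at -0.05 and -0.04, and MED8 at 0.07 and 0.02. None of the 6 other head genes passed with either hairpin.

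**Figure D3:**
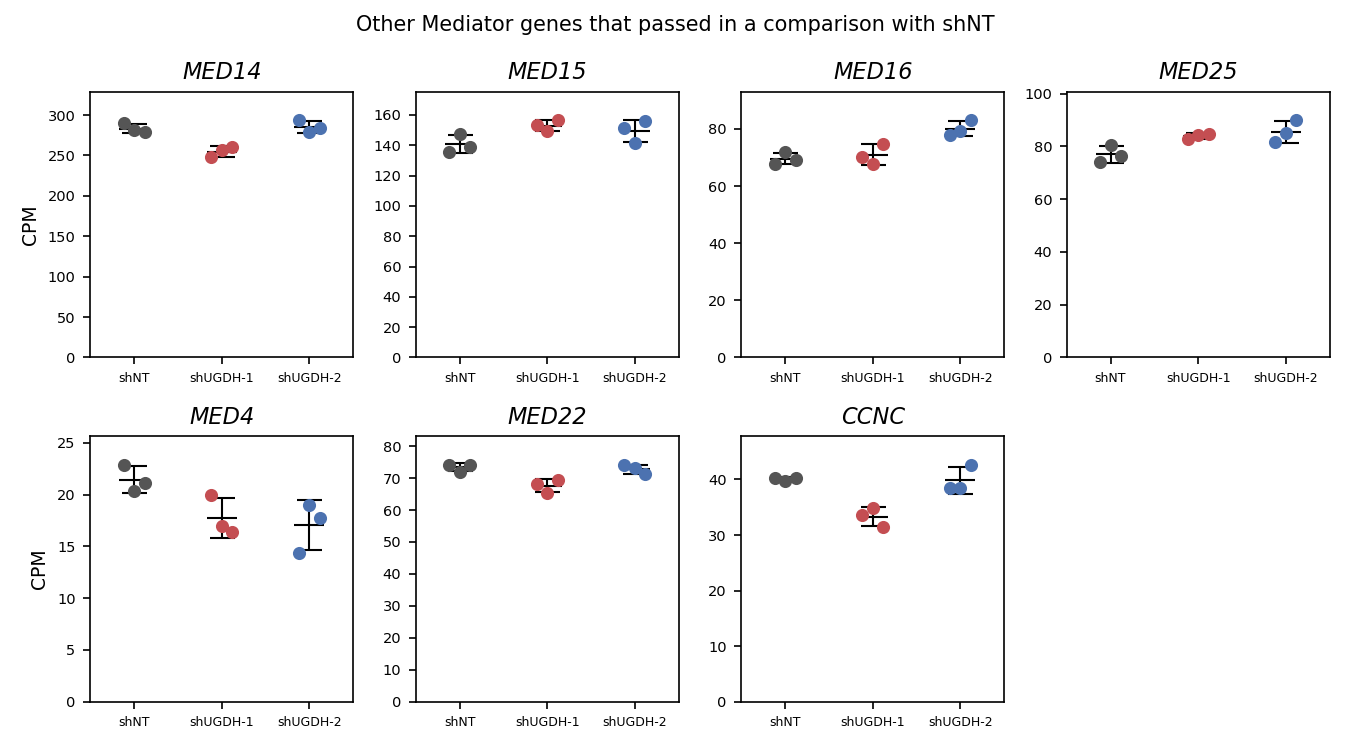
Levels in CPM of the 7 Mediator genes besides MED24 that passed in a comparison with shNT, 1 panel per gene with its own axis from 0; points are libraries and bars the mean and SD of 3. The shUGDH-1 points are the lowest for MED14, CCNC and MED22, the shUGDH-2 points the highest for MED16, and both hairpins lie below the control for MED4.

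Groups that do not overlap were counted as a second description. With shUGDH-1, and with MED24 left out, 4 of 32 members had all libraries above and 7 all below the controls, beside 17.3% of all genes above and 16.8% below (34.1% in all). With shUGDH-2 there were 5 of 33 members above and 1 below the controls, beside 14.7% and 13.9% of all genes (28.5% in all). Between the hairpins, and again without MED24, 7 of 32 members were above and 0 below in all shUGDH-2 libraries, beside 13.1% and 13.9% of all genes (27% in all).

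The hairpins were then set against each other. Beside MED24, 3 members were higher with shUGDH-2 than with shUGDH-1 and none was lower, beside 10.9% of all genes (5.36% higher and 5.51% lower). MED14 differed by a log2 value of 0.16 (SE 0.03, edgeR adjusted p = 6.3e-06). MED16 differed by 0.18 (SE 0.05, edgeR adjusted p = 0.0042) and CCNC by 0.25 (SE 0.06, edgeR adjusted p = 0.0029). Without shUGDH-1 replicate 2 the MED16 difference did not pass (edgeR adjusted p = 0.069), and without shUGDH-2 replicate 3 the CCNC difference did not (0.056). Remaining UGDH differed between the hairpins by -0.09 (SE 0.13, 95% interval -0.34 to 0.16, edgeR adjusted p = 0.74). The 32 genes other than MED24 ran from -0.14 to 0.38, the upper end being MED12L at its low counts.

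Levels of different genes were compared per kilobase of the longest coding transcript, a choice of transcript that sets these values. With shNT the Mediator genes spanned 0.234 to 42.0 CPM per kb, with a median of 12.5 CPM per kb. MED15 was highest, at 42.0 ± 1.76 CPM per kb, followed by MED10 at 39.3 ± 2.00, MED1 at 38.3 ± 0.82, MED14 at 35.5 ± 0.74 and MED25 at 32.2 ± 1.35 (SD, n = 3 each). The libraries of MED15, MED10 and MED1 overlap along this order, whereas those of MED14, MED25 and MED24 do not overlap the gene before them. MED24 came sixth with shNT and with shUGDH-2, at 28.04 ± 0.46 and 28.1 ± 1.05 CPM per kb, and was number 21 with shUGDH-1, at 11.2 ± 0.83 CPM per kb (SD, n = 3 each). The lowest were MED28 at 1.63 CPM per kb, whose annotated transcript is 10.9 kb long, and MED12L at 0.234 CPM per kb.

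**Figure D4:**
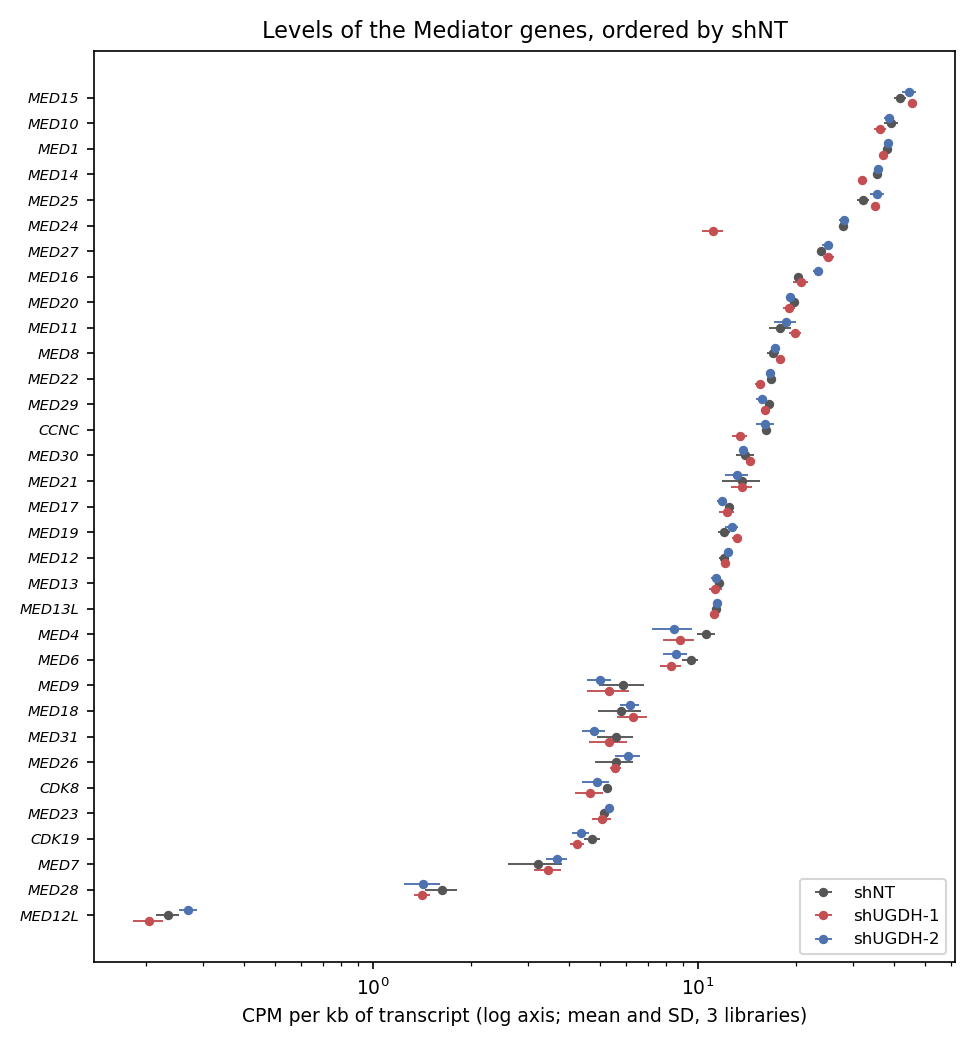
Level of each Mediator gene in CPM per kb of transcript on a log axis, mean and SD of 3 libraries, ordered by the shNT level. The 3 groups lie close together for most genes, and MED24 with shUGDH-1 lies at 11.2 CPM per kb, beside 28.04 with shNT.

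The genes around MED24 on chromosome 17 were examined for a change of the whole stretch. Of 15 neighbours, 12 had enough counts to test. THRA, the thyroid hormone receptor alpha gene, overlaps MED24 on the opposite strand, over chr17:40058290-40061215 only. Within that stretch, reads of the 2 genes cannot be separated without strand. Whether exons of both genes fall in it was not examined. THRA was at 26.4, 25.9 and 25.5 CPM in the shNT libraries, 28.6, 27.6 and 27.7 CPM with shUGDH-1, and 27.2, 27.3 and 27.8 CPM with shUGDH-2. It did not pass, with log2 fold changes of 0.11 and 0.08 (edgeR adjusted p = 0.29 and 0.51). CSF3, which encodes the growth factor G-CSF, lies 1.3 kb beyond the 3′ end of MED24. It was at 7.68, 7.40 and 6.98 CPM in the shNT libraries, 5.70, 5.94 and 6.29 CPM with shUGDH-1, and 9.43, 10.3 and 9.21 CPM with shUGDH-2, so that the 3 groups did not overlap. Its log2 fold change was -0.31 (SE 0.14, edgeR adjusted p = 0.11) with shUGDH-1 and 0.39 (SE 0.12, edgeR adjusted p = 0.022) with shUGDH-2, and the hairpins differed by 0.70 (SE 0.13, edgeR adjusted p = 5.6e-05). The shUGDH-2 call was lost without shNT replicate 3 (edgeR adjusted p = 0.077) or shUGDH-2 replicate 2 (0.10) and with DESeq2 (0.12).

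The proteasome gene PSMD3, 21.1 kb from MED24, did not pass, at -0.04 and 0.02, nor did the circadian repressor NR1D1 at -0.14 and -0.15. WIPF2, a regulator of actin, rose with shUGDH-1 by 0.13 (edgeR adjusted p = 0.019) and was at 0.08 with shUGDH-2; the call was lost without shNT replicate 1 (0.12) or shUGDH-1 replicate 2 (0.24) and with DESeq2 (0.089). MSL1, CASC3, RAPGEFL1, CDC6, RARA, ORMDL3 and IKZF3 did not pass with either hairpin. With shUGDH-1 none of the 12 tested neighbours passed as lower, beside 10.3% of all genes tested. CSF3 was the 1 tested neighbour with all libraries below the controls, beside 16.8% of all genes. All libraries were above the controls for 4 neighbours, beside 17.3% of all genes.

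**Figure D5:**
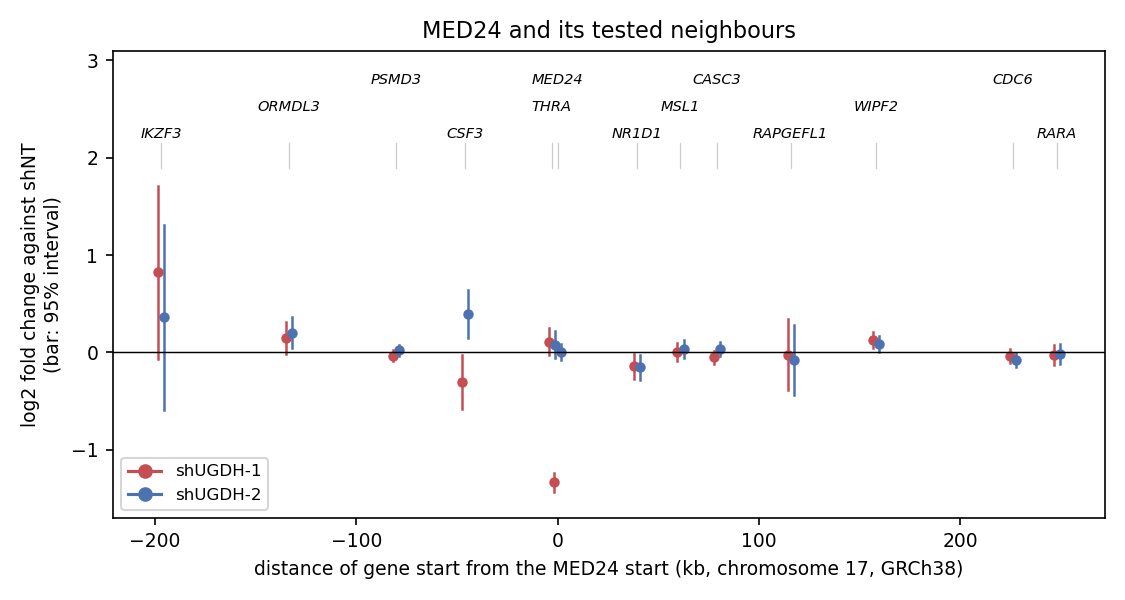
Log2 fold change against shNT of MED24 and its 12 tested neighbours, by distance of the gene start from the MED24 start in kb, with 95% intervals for shUGDH-1 (red) and shUGDH-2 (blue). MED24 with shUGDH-1 is at -1.33 and THRA, which overlaps it, at 0.11.

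Other genes of the transcription machinery were counted for comparison. With shUGDH-1, 1 of 12 RNA polymerase II subunit genes fell and none rose: POLR2B, the second largest subunit, had a log2 fold change of -0.24. Of 31 general transcription factor genes, 6 fell and none rose, led by GTF2A2 at -0.33, TAF7 at -0.28 and TAF11 at -0.24. Among 8 genes of cohesin and its loader, which work with Mediator at enhancer loops, 4 fell, including SMC1A at -0.18, STAG1 at -0.16 and NIPBL at -0.12. In the elongation and pause release list, 1 of 19 genes rose and 3 fell (AFF1 at -0.18, LARP7 at -0.17 and NELFE at -0.13). These shares stand beside the 20.8% of all genes called in this comparison, 10.5% higher and 10.3% lower. The calls of POLR2B, GTF2A2, TAF7, AFF1, SMC1A and NIPBL held without any 1 library. TAF11 did not pass without shNT replicate 1 or 3 or shUGDH-1 replicate 1 or 2 (edgeR adjusted p 0.057 to 0.21), and NELFE without shNT replicate 2 or shUGDH-1 replicate 1 or 3 (0.056 to 0.27). LARP7 did not pass without shNT replicate 3 (edgeR adjusted p = 0.070) or shUGDH-1 replicate 2 (0.091), nor STAG1 without shNT replicate 1 (0.080) or shUGDH-1 replicate 3 (0.066).

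With shUGDH-2, where 14.9% of all genes were called and 6.81% were lower, none of the 12 polymerase genes passed, 3 of 31 general transcription factor genes fell (GTF2A2 at -0.18, TAF9 at -0.13 and TAF7 at -0.10) and 2 of 8 cohesin genes fell (SMC3 at -0.18 and RAD21 at -0.11). In the elongation list, MLLT1 rose, at 0.10, and ELL2 fell, at -0.17. Of these genes, SMC3 and RAD21 passed without any 1 library. GTF2A2 was lost without shNT replicate 1 or 3 or any shUGDH-2 library (edgeR adjusted p 0.057 to 0.25), TAF7 without shNT replicate 2 or 3, shUGDH-1 replicate 2 or shUGDH-2 replicate 1 or 3 (0.051 to 0.22), and TAF9 without shNT replicate 3 (0.11) or shUGDH-2 replicate 2 (0.15). ELL2 was lost without shNT replicate 3 (edgeR adjusted p = 0.069) or shUGDH-2 replicate 2 (0.054), and MLLT1 without shNT replicate 1 (0.12).

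Activators and coactivators that bind Mediator gave 4 higher and 2 lower of 20 with shUGDH-1, and 3 higher and 1 lower with shUGDH-2, beside 20.8% and 14.9% of all genes called. The sterol regulators SREBF1 and SREBF2, whose products bind MED15, rose by 0.61 and 0.53 with shUGDH-1 and by 0.64 and 0.50 with shUGDH-2. ELK1, whose product binds MED23, fell by 0.23 with shUGDH-1, and RXRA, a partner of nuclear receptors, rose by 0.22 with shUGDH-2. Each of these calls held without any 1 library. Both genes were also called in the same direction with the other hairpin. ELK1 was at -0.13 with shUGDH-2 (edgeR adjusted p = 0.0091) and RXRA at 0.16 with shUGDH-1 (edgeR adjusted p = 0.009).

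In the authors' deposited tables, MED24 had a log2 fold change of -1.31 with shUGDH-1 (SE 0.06) and of 0.01 with shUGDH-2 (SE 0.04, adjusted p = 0.96). MED24 with shUGDH-1 is left out of the calls that follow, as it was put forward by that value. At an adjusted p under 0.05 the authors' deposited tables called CCNC and MED14 lower and MED15 higher with shUGDH-1. With shUGDH-2 they called MED16 higher. They did not call MED4 or MED25 with either hairpin, with adjusted p-values of 0.063 to 0.070. The share of all genes called by the authors is not given here, so these calls have no background beside them.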

How the data were processed

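Libraries were made with a NuGen mRNA kit and read as pairs on an Illumina NextSeq, per the labels' protocols. The deposited table gives whole, unnormalized read counts for each gene and library. The submitters' processing notes name STAR, DESeq, DESeq2 and hg19; no version, annotation, counting tool or use of strand is given there. The authors' deposited comparison tables hold, per the file headers, a mean signal (baseMean), a log2 fold change, its error and a p-value, raw and adjusted. They were used for comparison only.

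The members and gene lists were chosen with earlier results of these data known. The rule named every member, MED24's tested neighbours, and up to 3 called genes of at least 1 mean CPM per other list. Counts were filtered with filterByExpr (12546 genes, 99.93% of counts), scaled by TMM (factors 0.9968 to 1.0029) and fitted with robust edgeR 4.0.16 quasi-likelihood models over all 9 libraries. The fit had 6 residual degrees of freedom, and its common biological coefficient of variation was 0.0202. Intervals are at 95%. The variance between libraries of a group was 1.19 to 1.91 times that of counting alone. The 28 entries whose names had become dates stayed in the fit unnamed. Alternatives were relative log expression (RLE) size factors, library size alone, DESeq2 1.42.0, no filter, only the groups compared, a replicate block, and leaving out each library. Hairpins were matched to GENCODE release 29 transcripts (GRCh38), to which 92.4% of tested genes and all 33 members matched by symbol. Some genes of the comparison lists are not reported here.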

Additional observations from a re-analysis of the deposited data

Results flagged for a closer look

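MED14, MED16 and CCNC differed between the 2 UGDH hairpins by edgeR's quasi-likelihood test of that difference. On the log2 scale, shUGDH-2 minus shUGDH-1 was 0.164 for MED14 (edgeR adjusted p = 6.3e-06), 0.181 for MED16 (edgeR adjusted p = 0.0042) and 0.252 for CCNC (edgeR adjusted p = 0.0029). MED24, which drew attention through the shUGDH-1 libraries, is described without a test, and its difference was 1.34.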

How the results depend on the processing

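The MED24 log2 fold change with shUGDH-1 kept its size on leaving out any library (-1.38 to -1.27), as did its value with shUGDH-2 against shNT (-0.02 to 0.04) and between the hairpins (1.27 to 1.39). The counts of called Mediator genes are small and moved with the settings; here they include MED24 with shUGDH-1 and between the hairpins. Leaving out 1 library at a time gave, with shUGDH-1, 0 to 2 higher and 3 to 4 lower members, with shUGDH-2, 1 to 3 higher and 0 to 2 lower, and between the hairpins, 3 to 4 higher and 0 lower. Over all 12636 to 12657 genes then tested, these fits called 1042 to 1342 higher and 943 to 1257 lower with shUGDH-1. With shUGDH-2 they called 756 to 1031 higher and 496 to 815 lower. Between the hairpins they called 488 to 830 higher and 475 to 797 lower. DESeq2 called 0 members higher and 3 lower with shUGDH-1, and 1 higher and 0 lower with shUGDH-2. With library size alone, 1 member was higher with shUGDH-1, beside 1236 of all 12546 genes. The cause of these moves was not tested. Over all genes, DESeq2 called 876 higher and 753 lower with shUGDH-1 where edgeR called 1318 and 1287, and 611 and 400 with shUGDH-2 where edgeR called 1009 and 855; between the hairpins it called 407 and 383 where edgeR called 672 and 691. The calls of MED14 and CCNC with shUGDH-1, of MED16 with shUGDH-2 and of MED14 between the hairpins held under all 15 alternatives. Same-numbered libraries did not deviate together (correlations -0.042 to 0.089 over 9 pairs). A fit with the replicate number as a block called 4 lower members with shUGDH-1, MED24 counted among them, and 2 higher. Over all 12546 genes the block fit called 1284 lower and 1298 higher. It gave MED24 a log2 fold change of -1.33 and ended the MED22 call (edgeR adjusted p = 0.053). Counting limits MED12L most, at 18 to 37 counts per library.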
